A study of Oryza sativa with 4 samples.

Results

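The ILL genes of rice code for ILR1-like hydrolases, enzymes that cut the amide bond between auxin and an amino acid. Members were taken by name: every probe set of the Rice Genome array (Affymetrix) whose only annotated gene carries ILL1 to ILL9 as symbol or synonym. Of the 9 names, 7 were found in the gene table used here (ILL1, ILL2, ILL3, ILL5, ILL6, ILL7 and ILL8), and ILL4 and ILL9 were not found in it. These are 7 of 17905 annotated genes on the array, and they have 8 of the 57258 probe sets that are not controls, with 2 for ILL5 and 1 for each other gene. The RNA came from the lamina joint of the rice flag leaf, also called the collar, the hinge between leaf blade and sheath that sets how far the leaf leans out. Wild-type plants and plants of the lc1 mutant were each measured on 2 arrays, and the labels call these biological replicates. Neither the cultivar, the plant age nor the kind of lc1 allele is given in the labels. From the literature, LC1 is the auxin-conjugating enzyme GH3.1.

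Auxin in plant cells is held at a working level by synthesis, transport, oxidation and reversible storage. GH3 amido synthetases join the auxin indole-3-acetic acid to amino acids, and hydrolases of the ILR1 family, first described in Arabidopsis, cut some of these conjugates and return free auxin. The 2 families thus face each other across the same pool of conjugates, which is why the hydrolases are of interest in a mutant of a GH3 gene. In Arabidopsis, members of the ILR1 family including IAR3 and ILL6 also cut the conjugate of jasmonate with isoleucine. The substrates of the single rice members are not described here.

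The arrays had not been brought to 1 level by the authors, so each was multiplied by a constant (0.833 to 1.10) that sets its median ratio to the mean array to 1, and the products are called levelled signals. The background floor of an array, the 95th percentile of its 23 control probe sets without a rice target, was 9.90 to 13.0 in levelled signal. As a sign of RNA quality, the 5' to 3' ratio of the Gapdh control was 0.164 on wild type 1 and 0.138 on lc1 replicate 2, against 0.236 on wild type 2 and 0.246 on lc1 replicate 1, and so did not follow genotype. The lamina joint regulator LG1 was above the floor on all 4 arrays, as were the brightest probe sets of the photosynthesis genes CAB2R, rbcS and rca, while RBCS1, the other measured gene of that list, was under the floor on all 4 arrays. GH3.1 was under the floor in both wild-type joints and bright in both lc1 joints. Of the 6 panicle genes in the marker list, MADS6, MADS7 and MADS13 lay under the floor on all 4 arrays. MADS58 (14.38) and MADS8 (10.98) exceeded the floor on wild type 1 alone. MADS1, a floral regulator, read 325.9 and 52.9 in the wild type against 35.4 and 162.7 in lc1, which is no order by genotype, with wild type 1 the highest array. The part of panicle tissue in the values of wild type 1 was not tested. The meristem gene OSH1 was under the floor on all 4 arrays, and no root marker was matched. The secondary wall genes CESA4, CESA7 and CESA9 were lower on both lc1 arrays than on both wild-type arrays, with a median log2 difference of -1.20 over the 3 genes. Over all tested probe sets 20.0% had lc1 lower without overlap. All 3 genes had an unadjusted limma p under 0.05, against 3.89% of tested probe sets in that direction, and 0 passed the adjusted threshold. Their part in the values of the ILL genes was not tested. In RNA from a whole joint, fewer cells of a type and less RNA per cell cannot be told apart.

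In the wild-type collar 6 of the 7 ILL genes gave signals above the floor on every array, and ILL3 lay under it on every array. By probe set, 7 of the 8 were above the floor on all 4 arrays, against 44.4% of the 57258 probe sets kept. No ILL gene differed between the genotypes by limma, a linear model with a spread shared over probe sets, after Benjamini-Hochberg adjustment over the 34355 tested probe sets. The 7 tested ILL probe sets, which cover 6 genes, had adjusted p from 0.668 to 0.961, and 0 of them had an unadjusted limma p under 0.05. Over all tested probe sets 9 passed the adjusted threshold (0.0262%), and 8.03% had an unadjusted p under 0.05. The log2 differences of lc1 from the wild type ran from -0.36 for ILL8 to 0.82 for ILL6. With 1 probe set per gene, their median was 0.30 over the 6 genes, beside 0.00 over all tested probe sets, and it was -0.067 without lc1 replicate 1. With 2 arrays against 2, an exact permutation test of a single value cannot go below a 2-sided p of 0.333.

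Signals of different probe sets depend on their probes as well as on transcript level, so no order of level among the genes is read from them.

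**Figure D1:**
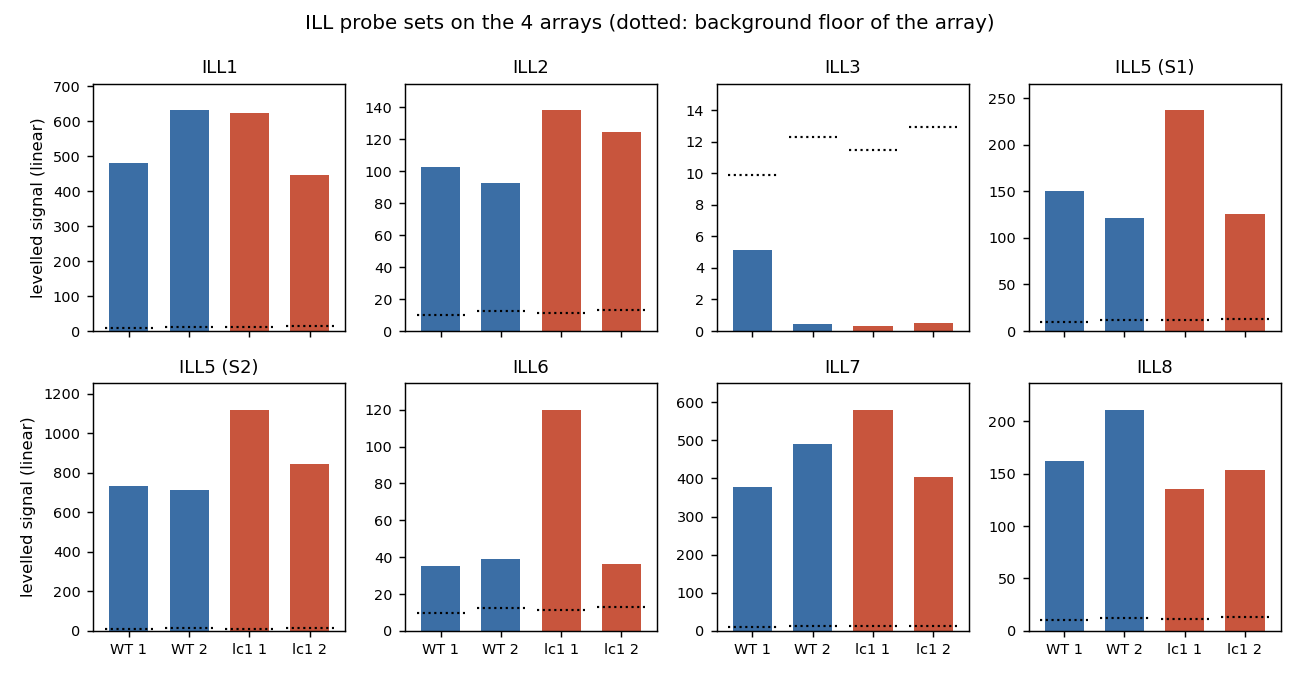
Levelled signal on a linear scale (vertical axis, different in each panel) of the 8 ILL probe sets on wild-type arrays 1 and 2 (blue) and lc1 arrays 1 and 2 (red), with 1 bar per array and the background floor of each array dotted. ILL3 lies under the floor on all 4 arrays, and ILL6 stands at 119.9 on lc1 replicate 1 against 35.5 to 39.2 on the other arrays.

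ILL5 and ILL2 were the members whose lc1 arrays both exceeded the wild-type arrays. ILL5 (LOC4336428, chromosome 4) has a pair of probe sets. The brighter (suffix S2), read 732.1 and 714.3 in wild-type joints and 1117 and 841.7 in lc1 joints. Both lc1 arrays stood above the wild type, replicate 1 further than replicate 2. The wild-type mean was 723.2 ± 12.5 (SD, n = 2) and the lc1 mean 979.2 ± 194.5 (SD, n = 2), a log2 difference of 0.42 with a standard error (SE) of 0.22 and a 95% interval of -0.07 to 0.92. This was the smallest p among the members, at an unadjusted limma p of 0.0862 and an adjusted p of 0.668. The dimmer probe set (suffix S1), read 150.7 and 121.6 in wild-type joints and 237.0 and 125.1 in lc1 joints. There lc1 replicate 2 lay between the wild-type arrays, so that the genotypes overlapped. Its log2 difference was 0.35 (SE 0.35), and -0.11 without lc1 replicate 1. The probe sets of ILL5 thus gave like differences over both lc1 arrays and unlike ones on lc1 replicate 2.

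ILL2 (LOC4327677, chromosome 1) is represented by a probe set of the _x_at kind, which can also bind related transcripts. It read 102.4 and 92.4 in wild-type joints and 138.3 and 124.8 in lc1 joints. The lc1 arrays were close to each other and both above the wild type. The log2 difference was 0.43 (SE 0.28, 95% interval -0.20 to 1.07), or 1.35-fold, with a limma adjusted p of 0.716. Of the 7 tested ILL probe sets, 2 had no overlap with lc1 higher, and 1 had none with lc1 lower. Over all tested probe sets these shares were 19.7% and 20.0%, so the counts are near the background and say nothing particular of the family.

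ILL6 (LOC4341907, chromosome 6) had the largest log2 gap between the lc1 arrays among the tested members, 1.73. It read 35.5 and 39.2 in wild-type joints and 119.9 and 36.2 in lc1 joints. Only lc1 replicate 1 was high, and lc1 replicate 2 lay between the wild-type arrays. Over both lc1 arrays the log2 difference was 0.82 (SE 0.52, 95% interval -0.37 to 2.02), with a limma adjusted p of 0.715. The lc1 replicate 1 array alone was 3.22-fold above the wild-type mean, and 3.08% of tested probe sets were at least as high on that array against the wild type. Without lc1 replicate 2, ILL6 passed limma with an adjusted p of 0.0201, in a fit that called 1268 probe sets (3.69%). Over all alternatives its adjusted p ran from 0.0201 to 0.997. Without lc1 replicate 1 its log2 difference was -0.044, with a limma adjusted p of 0.996.

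ILL1 and ILL7 were at like levels in both genotypes within wide intervals. ILL1 (LOC4324686, chromosome 1, also named IAR) read 480.2 and 631.2 in wild-type joints and 621.7 and 446.8 in lc1 joints. ILL7 (LOC4342838, chromosome 7) read 376.3 and 491.2 in wild-type joints and 579.6 and 403.6 in lc1 joints. In both genes wild type 2 and lc1 replicate 1 were the high arrays, and the genotypes overlapped. These are also the arrays with the higher Gapdh ratio of 5' to 3' signal (0.236 and 0.246, against 0.164 and 0.138), and the part of RNA quality in the values was not tested. The log2 difference of ILL1 was -0.06 (SE 0.26, 95% interval -0.66 to 0.53) and that of ILL7 was 0.17 (SE 0.27, 95% interval -0.45 to 0.79). The intervals reach further than the differences of ILL5 and ILL2, so they do not show that the levels were equal. The sign of ILL1 turned in the signals as deposited (0.16, with the median probe set at 0.22), without wild type 2 (0.13) and without lc1 replicate 2 (0.18). That of ILL7 turned without wild type 1 (-0.022) and without lc1 replicate 1 (-0.091).

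ILL8 (LOC4342839, chromosome 7) follows ILL7 directly, with 0 protein-coding genes between them in the gene table. It read 162.1 and 210.9 in wild-type joints and 135.2 and 153.3 in lc1 joints. Both lc1 arrays lay below both wild-type arrays, while in the signals as deposited the genotypes overlapped. The log2 difference was -0.36 (SE 0.28, 95% interval -1.0 to 0.28), with a limma adjusted p of 0.760. The neighbouring ILL7 and ILL8 differed in which array was highest, lc1 replicate 1 for ILL7 and wild type 2 for ILL8. No test of the difference between them was run.

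ILL3 (LOC4334707, chromosome 3) read 5.16 and 0.415 in wild-type joints and 0.333 and 0.504 in lc1 joints. All 4 signals were under the floor of their array, so that no fold is given, and the probe set was below the filter on dim signals. Of all 57258 probe sets kept, 22125 were above the floor on no array.

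**Figure D2:**
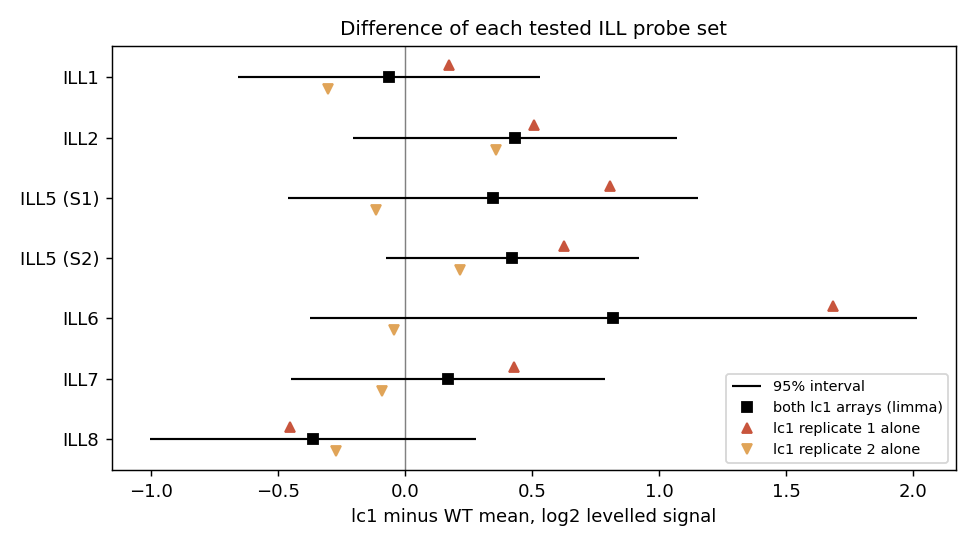
Log2 difference of lc1 from the wild-type mean (horizontal axis) for the 7 tested ILL probe sets, with limma's value over both lc1 arrays (squares), its 95% interval (lines) and each lc1 array alone (triangles). All 7 intervals include 0, and the triangles of ILL6 lie at 1.69 for lc1 replicate 1 and -0.044 for lc1 replicate 2.

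The lc1 arrays gave different pictures of the family. Of the 7 tested ILL probe sets, 6 were higher on lc1 replicate 1 than on lc1 replicate 2, and ILL8 was the exception. Over all tested probe sets the share was 50.2%. The log2 gaps, replicate 1 minus replicate 2, ran from -0.18 for ILL8 to 1.73 for ILL6 in lc1. Between the wild-type arrays they ran from -0.39 for ILL1 to 0.31 for the dimmer ILL5 probe set. The lc1 arrays also had the highest and the lowest Gapdh ratio of 5' to 3' signal (0.246 and 0.138). The part of RNA quality in these gaps was not tested. On lc1 replicate 1 alone the median log2 difference of the 6 ILL genes from the wild type was 0.47, and on lc1 replicate 2 alone it was -0.067. The highest array was lc1 replicate 1 for 5 of the 7 probe sets, against 29.8% of all tested probe sets. The probe sets share the 4 arrays, and 2 of them share a gene, so these counts describe the arrays and are not replicates of the genotype.

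Because hydrolases of this family can also act on a jasmonate conjugate in Arabidopsis, the JAZ genes, which code for repressors of jasmonate signalling and are themselves induced by jasmonate, were set beside them. Of 13 JAZ genes on the array 12 were tested, and by the brightest probe set of each, all 12 were higher on lc1 replicate 1 than on lc1 replicate 2, by a median of 0.84 on the log2 scale. Their median difference from the wild type was 1.25 on lc1 replicate 1 and 0.26 on lc1 replicate 2. Both lc1 arrays lay above both wild-type arrays for 9 of the 12 genes, against 19.7% of all tested probe sets. JAZ9 was not among them. It read 130.2 and 42.0 in wild-type joints and 781.0 and 66.3 in lc1 joints, with the high value on the same array as that of ILL6. JAZ13 read 54.4 and 27.2 in wild-type joints and 426.3 and 98.7 in lc1 joints, where both lc1 arrays were above the wild type. Of the 12 JAZ genes 7 had an unadjusted limma p under 0.05, all with lc1 higher, against 4.14% of all tested probe sets in that direction, and 0 passed after adjustment. What sets lc1 replicate 1 apart was not tested. The list of JAZ genes was added after the signals had been seen, so its counts only describe these arrays. A link between the JAZ and the ILL genes was not tested.

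**Figure D3:**
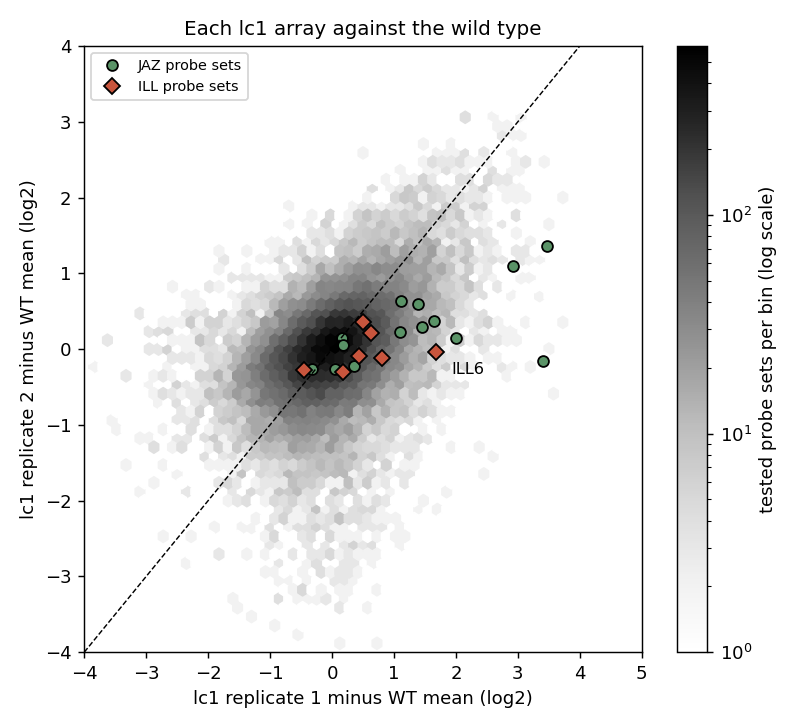
Log2 difference from the wild-type mean on lc1 replicate 1 (horizontal axis) and on lc1 replicate 2 (vertical axis) for the tested ILL probe sets (red diamonds) and JAZ probe sets (green circles), over the density of tested probe sets within the axes (grey, log scale), with equal values on the dashed line. ILL6 lies at 1.69 and -0.044, and 6 of the 7 ILL probe sets lie below the dashed line.

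The genes on the other side of the conjugate pool, the GH3 genes, held the largest differences among the auxin genes listed here. GH3.1 lay under the floor on both wild-type arrays (1.10 and 9.35) and read 459.8 and 421.0 in lc1. It was at least 39.8-fold higher in lc1, with both wild-type arrays raised to the floor. Its limma adjusted p was 0.0502, just short of the threshold. Over the alternatives with all 4 arrays this limma value ran from 1.61e-49, with the replicate number as a block, to 0.595, without an intensity trend. With 1 array left out its log2 difference ran from 5.56 to 8.65, values that depend on wild-type signals under the floor. GH3.2, of the same family, read 715.7 and 707.3 in wild-type joints and 229.6 and 139.6 in lc1 joints, a log2 difference of -1.99 (SE 0.29) with a limma adjusted p of 0.0907. With 1 array left out the log2 difference of GH3.2 ran from -2.35 to -1.63. In the alternatives that keep all 4 arrays its limma adjusted p ran from 4.37e-06, with the replicate number as a block, to 0.611, without an intensity trend. GH3.4 gave 20.3 and 25.0 in wild-type joints and signals below the floor in both lc1 joints, which makes it at least 1.85-fold lower, with a limma adjusted p of 0.369. GH3-8 read 58.2 and 41.8 in wild-type joints and 126.3 and 70.7 in lc1 joints, with a limma adjusted p of 0.593. The conjugation list holds GH3 genes and IAMT1, and the substrate of each gene is not described here. Of the 10 conjugation genes measured, 8 were tested and 0 passed. An unadjusted limma p under 0.05 was found for 4, GH3.1 among them, with 2 higher and 2 lower (4.14% and 3.89% of all tested probe sets). Of the 6 ILL genes 0 had one, where 8.03% of all tested probe sets did, so this count says nothing particular of the family. The differences of the ILL genes lay between -0.36 and 0.82, and no test of one family against the other was run.

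Other genes that set the auxin level were few on the array. FIB, also named TAR2, an aminotransferase of auxin synthesis, read 158.1 and 201.7 in wild-type joints and 99.2 and 110.6 in lc1 joints. Both lc1 arrays were below the wild type, with a log2 difference of -0.77 (SE 0.28) and a limma adjusted p of 0.562. The brighter probe set of YUCCA1, a flavin monooxygenase of auxin synthesis, was near the floor, and its log2 difference was 0.02 (SE 0.53). DAO, the dioxygenase that oxidises auxin, read 456.0 and 735.8 in wild-type joints and 870.3 and 465.3 in lc1 joints, with the same high arrays as ILL1 and ILL7. Of the 5 PIN transporter genes measured 3 were tested by limma, and 0 passed or had an unadjusted p under 0.05. PIN5a, an auxin carrier, read 48.4 and 59.3 in wild-type joints and 111.4 and 64.7 in lc1 joints, and its log2 difference was 0.66 (SE 0.36). No receptor gene of the TIR1 and AFB names was matched.

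**Figure D4:**
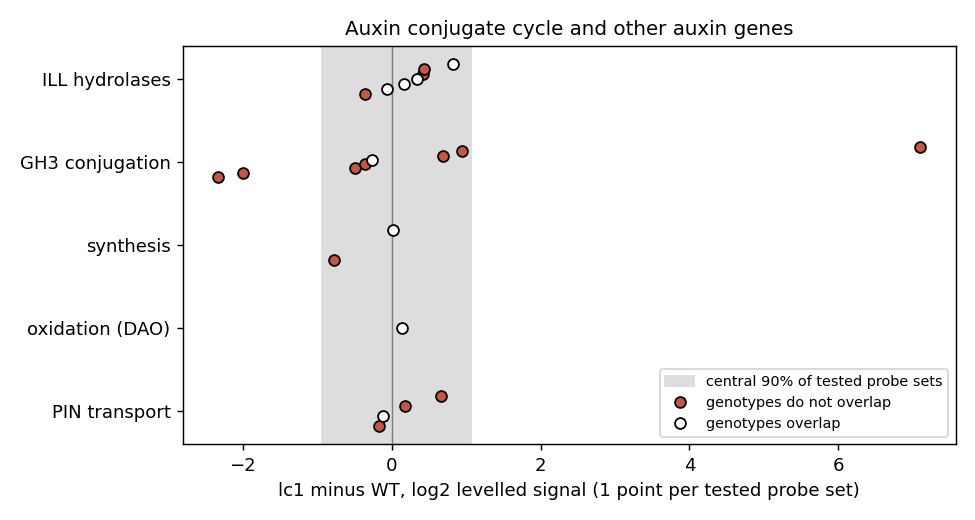
Log2 difference of lc1 from the wild type (horizontal axis) for every tested probe set of the ILL genes and of the other auxin lists, filled where the arrays of the genotypes do not overlap, with the central 90% of all tested probe sets shaded (-0.94 to 1.07). All 7 ILL points lie in the shaded range, and GH3.1 lies at 7.10, a fitted value that depends on wild-type signals under the floor.

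Other genes had much the same pattern over the 4 arrays as single ILL genes. Likeness was measured as the root mean square distance between log2 signals, each centred on its own mean, among 2515 probe sets of named genes above the floor on all 4 arrays. It was taken for the members above the floor whose genotypes did not overlap. The closest to ILL2 were OAT (distance 0.0127), AGPR (0.0249) and AO-4 (0.0329). Nearest to the brighter ILL5 probe set were Alpha-ETF (0.0183), SCS-alpha (0.0253) and SPL7 (0.0264). For ILL8 they were HAK23 (0.0421), DOF4 (0.0430) and LG2 (0.0451). Within a distance of 0.1 there were 86 probe sets for ILL2, 66 for ILL5 and 43 for ILL8, so that with 4 arrays many genes share each pattern.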

How the data were processed

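Values are intensities, 1 for each probe set on each array, as deposited by the authors on a linear scale. Per the series' design text they are signals of the Affymetrix Microarray Suite 5.0. R 1.8.0 is the tool named in the submitters' processing notes. The authors' detection calls, change calls and mixed model were not used here. Of 57381 probe sets, 123 controls were left out. The 18 values of 0 were raised to 0.1 before log2 was taken. Testing was limited to the 34355 probe sets whose mean log2 signal reached the 40th percentile, a signal of 5.96. Arrays were levelled by their median log2 ratio to the mean array. Genotypes were compared with limma 3.58.1 in R 4.3.3, by lmFit and by eBayes with a trend on intensity. Genotype was the sole term, which left 2 residual degrees of freedom. Tests were 2-sided at a threshold of 0.05 after Benjamini-Hochberg adjustment, and the script was checked on simulated data. Names come from the platform annotation and from a gene table of assembly ASM3414082v1, used for names, chromosomes and neighbours only.

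All ILL probe sets are named. Of each other auxin list, at most 4 genes are named by smallest p, among those without overlap that differ at least 1.5-fold and are above the floor in the brighter genotype. Other genes named as examples (YUCCA1, DAO, the JAZ and marker genes) were picked with their values in view. The name LAX was left out of the transport list, because in the gene table it belongs to a bHLH factor. Members and lists were chosen with earlier results of these data known, and so was the levelling. The alternatives were 4 other ways to level the arrays, 2 filters, an offset of 16, no intensity trend, the replicate number as a block and leaving out each array. Without 1 array of a genotype the lone array is assumed to vary like the others. The number of arrays limits the precision. Separate plants behind the arrays of a genotype rest on the labels alone.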

Additional observations from a re-analysis of the deposited data

How the results depend on the processing

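Of 91 differences of single ILL probe sets under 13 alternatives, 84 kept their direction and 7 did not, and 1 passed the threshold, that of ILL6 without lc1 replicate 2. With 1 array left out, 0 to 1 ILL probe sets passed limma, the log2 difference ran from -0.30 to 0.18 for ILL1, from -0.11 to 0.81 for the dimmer ILL5 probe set, from -0.044 to 1.69 for ILL6 and from -0.091 to 0.43 for ILL7, and the median over the ILL genes from -0.067 to 0.47. In the signals as deposited, where the median probe set lay 0.22 higher in lc1, ILL1 gave 0.16 and the median of the ILL genes was 0.52. The limma calls over the whole array, 9 as reported, were 1 with signals as deposited, 4 under quantile normalization, 1 without a filter, 15 with at least 2 arrays above the floor, 29 with the offset of 16, 0 without an intensity trend (2421 at an unadjusted p under 0.05) and 4 to 1268 with 1 array left out. The array numbers occur in both genotypes, and no label says that they mark a shared plant, day or batch. Deviations of arrays with the same number correlated at -0.04. With 2 arrays per genotype this value cannot show whether the arrays are paired. With the replicate block limma called 644 probe sets, 0 of them of an ILL gene. The cause of these changes was not tested. Signals under the floor, as for ILL3, hold no usable level.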
